A study of Saccharomyces cerevisiae W303 with 24 samples.

Results

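Disome II is a haploid yeast strain that carries a second copy of chromosome II, and disome II ubp6Δ is the same disome with the UBP6 gene deleted. Each of these strains was measured once, so that they are 2 of the 24 arrays of the study, chosen by their titles alone. The other 22 arrays hold the 11 other disomes (chromosomes I, V and VIII to XVI) with and without UBP6, again with 1 array each. Each array set RNA from a disome against RNA of a reference labelled wild-type in the other dye, and values are log2 ratios of strain over reference, on which a doubled RNA level has a value of 1.

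In yeast, RNA from an extra chromosome generally follows its copy number, while the rest of the genome keeps its single copy. Genes that answer to nutrients, stress or growth rate can nevertheless move on any chromosome when the balance of gene products is disturbed. Ubp6 is a deubiquitinating enzyme that sits on the proteasome, removes ubiquitin from bound substrates and delays their breakdown, and its loss speeds the degradation of many proteins. The question asked of the arrays was which RNA changes the 2 strains with an extra chromosome II share, on that chromosome and elsewhere, when set against the other disomes of the same genotype.

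All strains are MATa derivatives of W303 grown at 30 °C in YEPD, a rich glucose medium. According to the study's strain list, disomes were made by chromosome transfer and selected with HIS3 and KanMX6, which sit on different copies of the duplicated chromosome. In disome II ubp6Δ both markers interrupt LYS2, the aminoadipate reductase gene of lysine synthesis, and CaURA3 replaces UBP6. Disome II has the same LYS2 markers, with CaURA3 placed between YFR016C and YFR017C. The reference lacks ADE1 and LYS2, and the other disomes carry their markers on other chromosomes and keep LYS2. Against the other disomes, any gene that answers to the loss of LYS2 therefore cannot be told apart from one that answers to chromosome II. The ratios of disome II and disome II ubp6Δ to the reference do not set loss of LYS2 against its presence. Each strain is a single isolate with no second array, so a strain's other acquired changes cannot be told apart from its extra chromosome.

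The marker genes were read first. UBP6 gave a processed signal of 41.3 in disome II ubp6Δ and 2258 in disome II, and 24.2 to 265 in the other ubp6Δ disomes against 1215 to 3920 in the other disomes. The strain labels thus hold for UBP6. The reference signal of UBP6 was 18.0 beside disome II ubp6Δ and 3092 beside disome II, and lay between 12.9 and 56.6 on the other ubp6Δ arrays against 1817 to 4462 on the other UBP6 arrays. The RNA labelled wild-type on the ubp6Δ arrays was therefore as low in UBP6 as the strains, and the ratio of each ubp6Δ array does not measure the loss of UBP6. ADE1, which the reference lacks, had a strain signal of 3683 in disome II ubp6Δ and 389 in disome II, against reference signals of 19.5 beside disome II ubp6Δ and 14.0 beside disome II, which are too low for an exact ratio. On the ubp6Δ arrays the ratios ran opposite to the dyes in the labels and were turned. After this the labelled chromosome had the highest mean on each of the 24 arrays. In disome II ubp6Δ the next highest chromosome, I, had a mean of 0.07, and in disome II the next highest, IX, had a mean of 0.04.

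Disome II ubp6Δ was read at 5937 genes with a median strain signal of 1285, and disome II at 5789 genes with a median of 888.7. On the array of disome II ubp6Δ 95.3% of spots were well above background in at least 1 dye, and on that of disome II 90.3%. The 2 arrays lay on different slides, and disome II shared its slide with 7 of the other disomes and disome II ubp6Δ with 3.

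Genes of chromosome II read close to a doubled level in both strains. Disome II ubp6Δ had a mean log2 ratio of 0.93 over 409 genes of the chromosome (SD over genes 0.44), and disome II a mean of 0.86 over 400 genes (SD 0.55). In disome II ubp6Δ 355 of these genes, 86.8%, were above 0.5, and in disome II 327, 81.8%. Few genes of the chromosome lay below 0, at 2.69% in disome II ubp6Δ and 5.25% in disome II. The own-chromosome mean of disome II ubp6Δ was second of the 12 ubp6Δ disomes, whose others ran from 0.59 (disome XIV) to 0.98 (disome VIII) with a median of 0.88. That of disome II was sixth of the 12 disomes, the others running from 0.68 (disome I) to 0.99 (disome XIII) with a median of 0.82. With 1 array against 11 no test of these ranks could reach a p of 0.05.

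**Figure D1:**
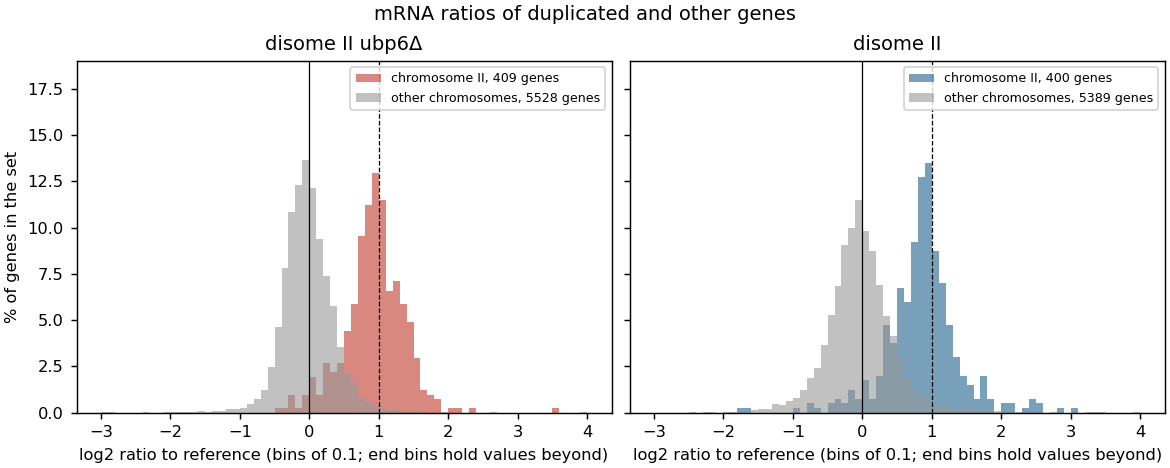
Distribution over genes of the log2 ratio of strain over reference in disome II ubp6Δ and in disome II, with genes of chromosome II set apart from all other genes. The genes of chromosome II centre on medians of 0.94 in disome II ubp6Δ and 0.88 in disome II, and the other genes centre near 0, with less spread in disome II ubp6Δ (SD 0.38) than in disome II (SD 0.50).

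The shift had no local gap. Cut into 20 neighbouring groups of 19 or 20 genes, the chromosome had group medians between 0.77 and 1.21 in disome II ubp6Δ and between 0.67 and 1.07 in disome II. The left arm averaged 0.87 in disome II ubp6Δ and 0.85 in disome II, and the right arm 0.96 in disome II ubp6Δ and 0.86 in disome II. Of the 395 genes of the chromosome read in both strains, 297 (75.2%) were above 0.5 in both. Only 4 were below 0 in both, which were PAU9, PAU24, AAC3 and SLM6, and 4 were above 1.5 in both, which were ECM13, MOH1, HSP26 and COS111. Across genes of the chromosome the ratios of the 2 strains had a Pearson correlation of 0.27, and their differences from the other disomes one of 0.45, as a description over genes that share arrays.

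**Figure D2:**
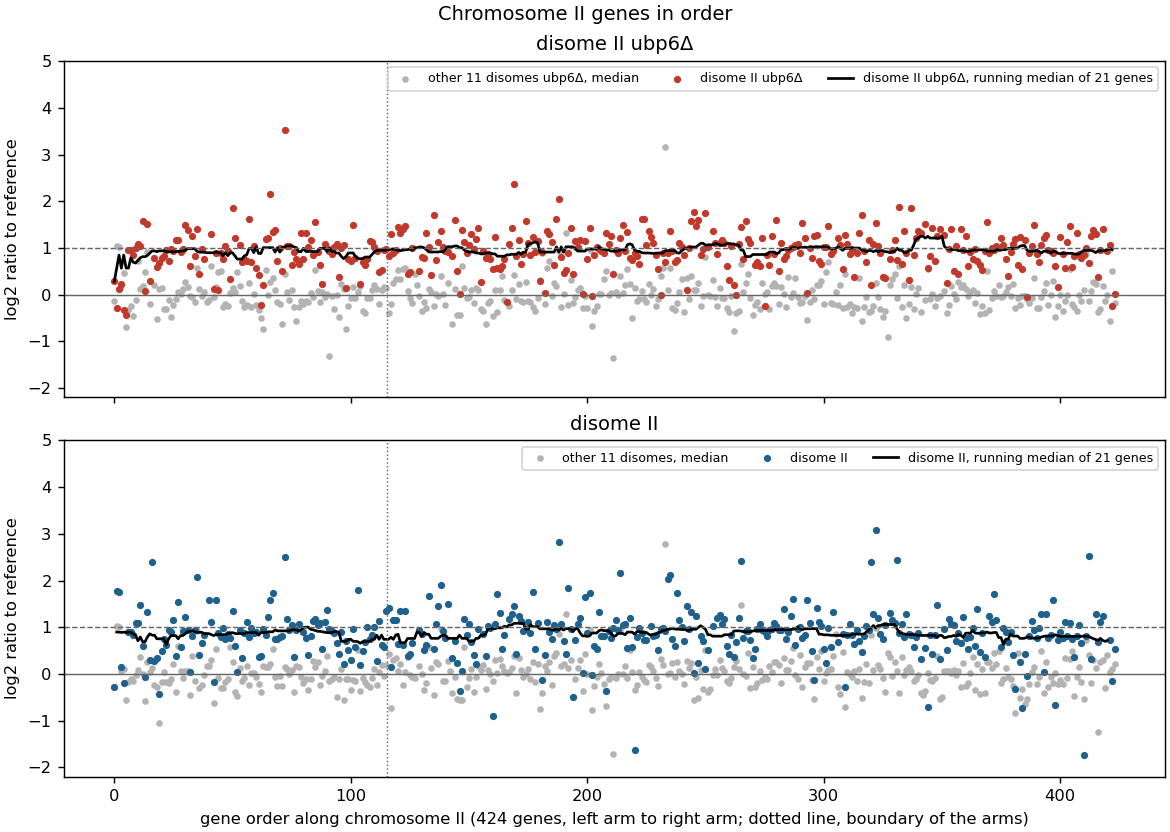
Log2 ratio of strain over reference of each measured gene of chromosome II in chromosomal order, in disome II ubp6Δ (upper panel) and disome II (lower panel), with a running median over 21 genes. Apart from the outermost genes of the left end in disome II ubp6Δ, the running medians stay close to 1 along the chromosome in both strains, and scattered single genes lie far above or below.

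Each gene was then set against the other disomes of its genotype, leaving out each disome's own duplicated chromosome. In disome II ubp6Δ 55 of 5909 genes passed limma at an adjusted p of 0.05, or 0.931%, and 53 of the 55 were genes of chromosome II that were higher. These 53 are 13.0% of the 409 genes of chromosome II tested, so that most genes with a shift near 1 did not pass singly. The genes that passed as lower were LYS2 and RPS9A (0.0338% of the genes tested), of which RPS9A was the only call among 5500 genes of other chromosomes (0.0182%). In disome II none of 5752 genes passed (0.0%), with 319 at an unadjusted p under 0.05, and so none passed in both strains. Each fit is 1 array against 11. The count for disome II ubp6Δ was 1 against the 3 disomes of its slide and 25 to 29 without disome I, V, VIII, X, XI, XIII or XIV, and that for disome II was 85 against the 7 disomes of its slide, 40 without disome XII and 14 without disome XV.

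Both strains were then read together through a fit of the mean of the 2 genotypes of each disome, over 12 pairs. A gene can pass this mean fit on 1 of the 2 strains alone, so a pass does not show that both strains share a change. Here 158 of 5657 genes passed limma (2.79%). Chromosome II held 154 of the 155 that were higher (2.74%), out of 389 of its genes tested (39.6%). LYS2 was the only gene of chromosome II among the 3 that were lower (0.053%). A second reading used no variance at all and asked which genes lay above all other disomes with a value, in both genotypes. At least 6 other disomes had to have a value in each genotype. Each disome's own duplicated chromosome was again left out, so many genes outside chromosome II were set against fewer than 11 disomes. Of 5672 genes 283 did (4.99%), made up of 256 on chromosome II (65.3% of its genes compared) and 27 of 5280 elsewhere (0.511%). Below all others in both were 33 genes (0.582%), made up of 1 on chromosome II (0.255%) and 32 elsewhere (0.606%).

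LYS2 stood alone on the duplicated chromosome. Its ratio was 0.71 in disome II ubp6Δ, against 2.57, 3.17 and 3.69 as the lowest, median and highest of the other ubp6Δ disomes. In disome II it was 0.91, against 2.21, 2.78 and 3.26 in the other disomes. The other 11 disomes of either genotype, which keep LYS2, thus read far above a reference that lacks it, and the groups did not overlap. Against the other disomes LYS2 was lower by a log2 difference of -2.15 ± 0.26 (SE) in the mean of both genotypes, with an adjusted p of 0.00344 by limma. The probe still read 1055 in disome II ubp6Δ and 188 in disome II, against reference signals of 647 beside disome II ubp6Δ and 100.1 beside disome II.

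The highest genes of chromosome II by the mean difference from the other disomes were ECM13, PHO5, COS111, HSP26, MET8, RRN10, TRM7, YRO2, YBR292C and GAL1. ECM13, a gene of unknown function, had a ratio of 3.53 in disome II ubp6Δ, against -0.18, 0.44 and 1.32 as the lowest, median and highest of the other ubp6Δ disomes. In disome II it was 2.51, against -0.08, 0.15 and 2.09. It lay above all others in both genotypes, with a mean log2 difference of 2.54 ± 0.36 (SE, limma adjusted p = 0.00556). In disome II ubp6Δ the ECM13 strain signal of 323 lay within the 30.4 to 336 of the other ubp6Δ disomes. Its reference signal there was only 27.9, where the median beside the other ubp6Δ disomes was 142. In disome II the ECM13 strain signal was 2749, against 77.6 to 584, over a reference signal of 483, against 60.9 to 401. TRM7, which methylates the anticodon loop of transfer RNAs, was at 1.23 in disome II ubp6Δ, above the other ubp6Δ disomes at -0.42, -0.27 and 0.24. In disome II TRM7 was at 1.75, against -0.67, 0.25 and 0.43. Its mean difference was 1.54 ± 0.26 (adjusted p = 0.00782). MET8, an enzyme of sirohaem synthesis that sulfite reduction needs, was at 0.74 in disome II ubp6Δ and at 2.44 in disome II, and passed with a mean difference of 1.56 ± 0.30 (adjusted p = 0.0131). The values of disome II depended on the background correction and dye normalization: with normexp and loess in place of the processed signals, its difference from the other disomes was 0.56 for TRM7, where it was 1.70, and 0.26 for MET8, where it was 2.30. The deposited table gave 1.06 for TRM7.

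Others of these 10 did not pass, and at some of them the other disomes spread widely. PHO5, the secreted acid phosphatase that phosphate starvation induces, was only at 0.43 in disome II ubp6Δ and 0.98 in disome II. The other ubp6Δ disomes had PHO5 at -4.03, -1.36 and 0.81, and the other disomes at -4.33, -1.71 and 0.10. Against only the disomes of the same slide, PHO5 differed by 0.35 in disome II ubp6Δ, where it was 2.03. In disome II PHO5 then differed by 1.64, where it was 2.59. Its mean difference of 2.43 ± 1.35 did not pass (adjusted p = 0.999). HSP26, a small heat shock protein, was at 2.05 in disome II ubp6Δ and 2.84 in disome II, within -0.86 to 2.44 in the other ubp6Δ disomes and above -0.90 to 2.16 in the other disomes, and did not pass (adjusted p = 0.809). YRO2, a putative plasma membrane protein, was at 2.38 in disome II ubp6Δ and 1.46 in disome II, inside the range of the others in both genotypes. COS111 was at 1.54 in disome II ubp6Δ and 3.09 in disome II (mean difference 1.70 ± 0.55, adjusted p = 0.234). RRN10, a subunit of the upstream activating factor of RNA polymerase I, was at 0.92 in disome II ubp6Δ and 0.96 in disome II (adjusted p = 0.242). YBR292C, an uncharacterised reading frame, was at 0.68 in disome II ubp6Δ and 2.52 in disome II (adjusted p = 0.0938). With normexp and loess the differences of disome II at COS111 and YBR292C were 0.15 and 0.24, where they were 2.12 and 2.04.

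The lowest genes of the chromosome included several at its ends and in repeated families. They were ECM8, PAU9, PAU24, BSD2, YBL112C, YPT10, YBL113C, HHF1, SLM6 and YBL111C. PAU9, a seripauperin near the left end, was at -0.33 in disome II ubp6Δ, against -0.25, 0.46 and 1.01 in the other ubp6Δ disomes. In disome II PAU9 was at -0.19, against -0.66, 0.11 and 0.55. PAU24, of the same family near the right end, was at -0.25 in disome II ubp6Δ and -0.15 in disome II. The seripauperin genes are near copies of each other on many chromosomes, and a probe may read several of them. ECM8 was at 0.53 in disome II ubp6Δ and 0.42 in disome II, while the medians were 1.32 in the other ubp6Δ disomes and 1.29 in the other disomes. None of these 10 passed in the mean of both genotypes, with differences between -0.89 and 0.12.

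Some of the low genes went opposite ways in the 2 strains. BSD2, which sends metal transporters to the vacuole, was at 0.86 in disome II ubp6Δ and -1.75 in disome II. YPT10, a Rab GTPase, was at 0.54 in disome II ubp6Δ and -0.74 in disome II. YBL112C and YBL111C, subtelomeric helicase fragments next to the left telomere, read differently in the strains. YBL112C was at -0.30 in disome II ubp6Δ and 1.78 in disome II, and YBL111C at 0.11 in disome II ubp6Δ and 1.75 in disome II. YBL113C beside them was at 0.28 in disome II ubp6Δ and -0.27 in disome II.

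Some genes close to either end were at the level of the chromosome. MIX23, the innermost of the 5 outermost measured genes on the left and a mitochondrial intermembrane space protein, was at 0.96 in disome II ubp6Δ, against -0.89, -0.34 and 0.14 in the other ubp6Δ disomes. In disome II MIX23 was at 0.89, against -0.60, -0.18 and -0.03 (mean difference 1.24 ± 0.23, limma adjusted p = 0.0107). On the right, MAL31, the maltose permease, was at 1.41 in disome II ubp6Δ and 1.24 in disome II (mean difference 1.14 ± 0.24, adjusted p = 0.0174). MAL33, the maltose activator beside it, was at 0.96 in disome II ubp6Δ and 1.12 in disome II (adjusted p = 0.283). PHO89, a sodium-phosphate cotransporter, was at 0.39 in disome II ubp6Δ and 0.67 in disome II among others that ran from -2.50 to 2.26 with ubp6Δ and from -2.58 to 2.98 with UBP6. COS2, of a subtelomeric family, was at 0.02 in disome II ubp6Δ and 0.53 in disome II.

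Groups of genes of known function on chromosome II followed the chromosome. Of the 6 DNA replication genes there, 5 lay above all other disomes in both genotypes, where 65.3% of all genes of the chromosome did, and 5 passed the mean fit, where 39.6% did. MCM7, a subunit of the replicative helicase, was at 1.09 in disome II ubp6Δ, against -0.93, -0.25 and 0.24 in the other ubp6Δ disomes, and at 1.27 in disome II, against -0.43, 0.08 and 0.50. Its mean difference was 1.31 ± 0.23 (limma adjusted p = 0.00828). MCM2, of the same helicase, was at 1.03 in disome II ubp6Δ and 0.88 in disome II (1.14 ± 0.18, adjusted p = 0.00653). POL12, of DNA polymerase alpha, was at 0.76 in disome II ubp6Δ and 0.90 in disome II (1.08 ± 0.22, adjusted p = 0.0165). POL30, the sliding clamp PCNA, was at 0.98 in disome II ubp6Δ and 1.32 in disome II (1.06 ± 0.19, adjusted p = 0.00998). The 28 replication genes on other chromosomes had median differences of 0.04 in disome II ubp6Δ and 0.01 in disome II.

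The pathway in which Ubp6 works has members on the chromosome. All 3 proteasome genes there were above all other disomes in both genotypes, like 65.3% of the genes of the chromosome. PRE7, a catalytic core subunit, was at 1.05 in disome II ubp6Δ and 0.95 in disome II (mean difference 0.98 ± 0.22, limma adjusted p = 0.027). HSM3, a base assembly chaperone, was at 1.06 in disome II ubp6Δ and 1.29 in disome II (0.94 ± 0.16, adjusted p = 0.0085), and its difference in disome II was 0.81, or 0.26 with normexp and loess. UMP1, the core maturation factor, was at 1.22 in disome II ubp6Δ and 0.84 in disome II (0.99 ± 0.26, adjusted p = 0.0629). The deubiquitinase genes UBP13 and UBP14 had mean differences of 1.00 ± 0.17 (adjusted p = 0.00782) and 0.98 ± 0.15 (adjusted p = 0.00694). UBC4, a ubiquitin-conjugating enzyme, was at 1.18 in disome II ubp6Δ and 1.20 in disome II and did not pass (adjusted p = 0.208). The 42 proteasome genes on other chromosomes had median differences of 0.12 in both strains, with 21 higher and 7 lower in both, and none of them passed. Over all genes of other chromosomes 28.5% were higher in both and 25.4% lower. The mean ratio of the 42 genes was 0.14 in disome II ubp6Δ, within -0.09 to 0.15 in the other ubp6Δ disomes. In disome II that mean was 0.19, within 0.01 to 0.21 in the other disomes. PRE10, a core subunit, was the 1 of these 42 above all other disomes in both genotypes (0.511% over all genes of other chromosomes). PRE10 was at 0.50 in disome II ubp6Δ and 0.51 in disome II, and is named after its values were seen.

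Subunits of protein complexes, 52 of those read on the chromosome in both strains, had a median mean difference of 0.97 (SD 0.24), and the 337 genes outside the complexes one of 0.96 (SD 0.40). The complexes were those the study listed. At the RNA level 39 of the 52 (75.0%) lay above all other disomes in both genotypes, and 217 of 340 (63.8%) of the other genes. The spread followed signal strength too. Cut by signal into 4 equal sets, the dimmest set had an SD of 0.56 around a mean difference of 0.83, and the other 3 sets SDs of 0.29 to 0.31 around 0.88 to 0.92.

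All 10 ribosomal protein genes of chromosome II were higher than the mean of the other disomes in both strains, 8 lay above all of them in both genotypes (65.3% over the chromosome) and 4 passed the mean fit (39.6% over the chromosome), with a median difference of 0.93. RPS6B was at 1.02 in disome II ubp6Δ and 0.53 in disome II (0.96 ± 0.14, limma adjusted p = 0.00556). RPL19B was at 1.08 in disome II ubp6Δ and 1.10 in disome II (1.06 ± 0.18, adjusted p = 0.00782). The other members that passed were RPL32, with a mean difference of 0.90 ± 0.18 (adjusted p = 0.0158), and RPL21A, with one of 1.01 ± 0.25 (adjusted p = 0.0496). RPL19A missed the threshold (1.22 ± 0.30, adjusted p = 0.0506). RPL4A was the exception in level, at 0.01 in disome II ubp6Δ, against -0.70, -0.43 and -0.10 in the other ubp6Δ disomes, and at -0.37 in disome II, against -0.76, -0.56 and -0.07. Its partner on another chromosome, RPL4B, was at 0.24 in disome II ubp6Δ and -0.57 in disome II, and the 2 coding sequences are near copies that probes may not separate.

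The core histone genes lay at the low side of the chromosome, with no test of that gap. Chromosome II holds the divergent pairs HTA2 with HTB2 and HHT1 with HHF1, and their median mean difference was 0.50, where that of all its genes was 0.96, with 1 of 4 above all other disomes (65.3% over the chromosome) and none past the test. HTA2, for histone H2A, was at 0.53 in disome II ubp6Δ, against -0.92, 0.09 and 0.75 in the other ubp6Δ disomes, and at 0.63 in disome II, against -0.63, 0.19 and 0.48. HTB2, for H2B, was at 0.96 in disome II ubp6Δ and 0.57 in disome II (mean difference 0.70 ± 0.43). HHT1, for H3, was at 0.49 in disome II ubp6Δ and 0.43 in disome II (0.50 ± 0.38). HHF1, for H4, was at 0.45 in disome II ubp6Δ and 0.38 in disome II, both within the range of the others, with a mean difference of 0.04 ± 0.24. The 95% interval of the HHF1 difference ran from -0.50 to 0.58 and that of HTB2 from -0.22 to 1.62. HTB1, the partner of HTB2 on another chromosome, was at -0.47 in disome II ubp6Δ, against -0.55, 0.11 and 0.68, and at -0.44 in disome II, below the lowest of the others at -0.11, and did not pass (-0.67 ± 0.29, adjusted p = 0.592). The H3 and H4 gene copies are near identical, and their probes may cross-react.

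Regulators coded on the chromosome followed it as well. All 31 that were read in both strains had positive differences in both, with a median mean difference of 0.90. Of them 20 lay above all other disomes in both genotypes (65.3% over the chromosome) and 10 passed the mean fit (39.6% over the chromosome). IRA1, a brake on Ras, was at 1.11 in disome II ubp6Δ and 1.19 in disome II (1.15 ± 0.21, limma adjusted p = 0.00946). MED8, of the Mediator complex, was at 0.96 in disome II ubp6Δ and 0.82 in disome II (1.15 ± 0.15, adjusted p = 0.00495). PKC1, the cell wall kinase, was at 0.85 in disome II ubp6Δ and 0.83 in disome II (1.14 ± 0.23, adjusted p = 0.0158). HIR1, a corepressor of histone genes, was at 1.15 in disome II ubp6Δ, against -0.31, -0.06 and 0.39, and at 0.74 in disome II, against -0.59, -0.27 and -0.02 (1.10 ± 0.18, adjusted p = 0.00698). With normexp and loess the differences of disome II were 0.59 for PKC1, where it was 1.01, and 0.66 for HIR1, where it was 1.02. CDC28, the cell cycle kinase, was at 1.26 in disome II ubp6Δ and 0.96 in disome II (0.93 ± 0.25, adjusted p = 0.0733).

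GAL1 and GAL7 of the galactose cluster were higher in glucose medium, in which the cluster is repressed. GAL1, the galactokinase, was at 1.71 in disome II ubp6Δ, against -0.76, -0.24 and 0.48 in the other ubp6Δ disomes. In disome II GAL1 was at 0.53, against -0.76, -0.46 and -0.05. GAL7, the uridylyltransferase, was at 1.02 in disome II ubp6Δ, against -0.52, 0.13 and 0.40, and at 1.67 in disome II, against 0.03, 0.57 and 1.12. Both genes were above all others in both genotypes, with mean differences of 1.43 ± 0.30 for GAL1 (limma adjusted p = 0.0185) and 1.07 ± 0.23 for GAL7 (adjusted p = 0.0229). With normexp and loess the differences of disome II were 0.48 for GAL1, where it was 0.99, and 0.73 for GAL7, where it was 1.17. The galactose genes on other chromosomes had no member past the test.

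Outside chromosome II the spread was small in disome II ubp6Δ and midway in disome II. In disome II ubp6Δ the SD over genes of other chromosomes was 0.38, the lowest of the 12 ubp6Δ disomes (others 0.43 to 0.58), and 1.63% of genes lay beyond 1 in size, against 2.93 to 7.56% in the others. In disome II the SD was 0.50, eighth of the 12 disomes (others 0.44 to 0.66), and 4.92% lay beyond 1, against 3.19 to 8.41%. Few genes moved far from the other disomes in both strains. Of 5280 genes 3 had differences above 1 in both and 7 below -1 in both. By sign alone 28.5% of the 5268 tested had positive differences in both and 25.4% negative ones in both. The 7 lower genes included RPS9A, CWP1 and RTA1. RTA1, of the drug resistance list, had differences of -1.82 in disome II ubp6Δ and -1.24 in disome II. It did not lie below all other disomes in both genotypes.

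**Figure D3:**
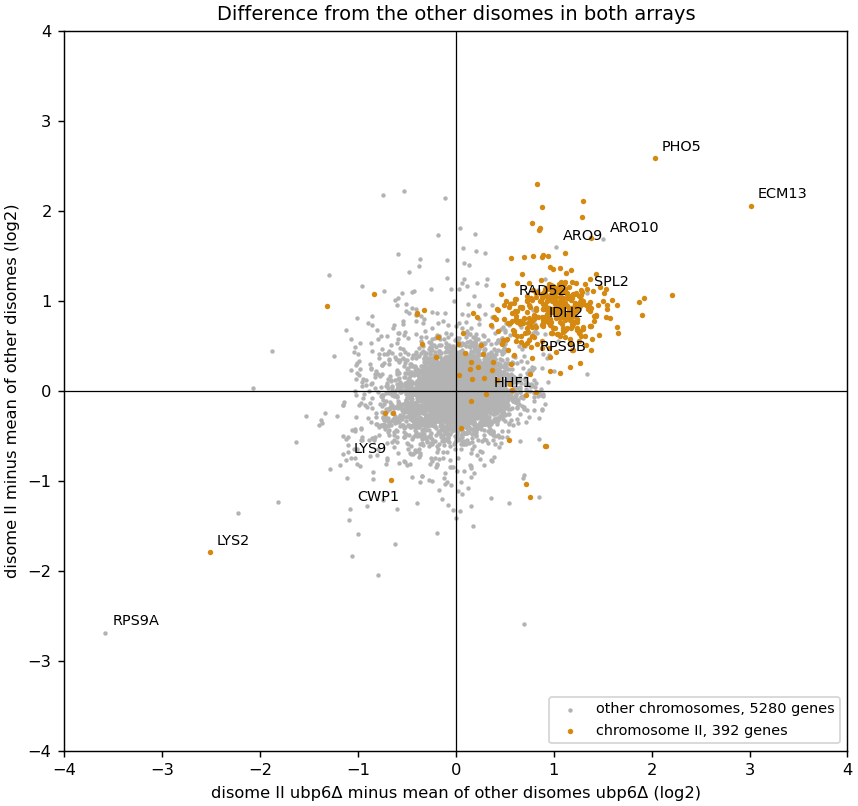
Difference from the mean of the other 11 disomes of the same genotype, in log2 units, for each gene in disome II ubp6Δ (horizontal axis) and in disome II (vertical axis), with genes of chromosome II in colour. Chromosome II genes gather near 1 on both axes, other genes gather at 0, and RPS9A and LYS2 stand far out on the lower side of both.

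RPS9A, on chromosome XVI, was the single gene of another chromosome that passed in disome II ubp6Δ. It codes for ribosomal protein S9 of the small subunit, and its paralog RPS9B lies on chromosome II. The ratio of RPS9A was -3.86 in disome II ubp6Δ, against -0.70, -0.22 and 0.17 as the lowest, median and highest of the other ubp6Δ disomes. In disome II it was -2.45, against -0.72, 0.51 and 0.97. The difference was -3.58 ± 0.35 (limma adjusted p = 0.000936) in disome II ubp6Δ, -2.69 ± 0.62 (adjusted p = 0.0791) in disome II and -3.14 ± 0.46 (adjusted p = 0.00653) in the mean of both. Against only the disomes of the same slide, the RPS9A difference was -3.85 in disome II ubp6Δ and -3.05 in disome II. With normexp and loess it was -3.46 in disome II ubp6Δ and -2.05 in disome II. Strain and reference signals of RPS9A were 869 and 12645 on the array of disome II ubp6Δ and 597 and 3270 on that of disome II. RPS9B, with 2 copies of the gene, was at 0.54 in disome II ubp6Δ, against -0.58, -0.28 and 0.30. In disome II RPS9B was at 0.85, against 0.21, 0.47 and 0.68. It lay above all others in both genotypes and did not pass (0.58 ± 0.17, adjusted p = 0.135). The coding sequences of RPS9A and RPS9B are alike, and a probe of either may also read the other.

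No other paralog pair of the list had an off-chromosome member this far down. The pair of HTB2 and HTB1 went the same way by less. HTB1 had differences of -0.59 in disome II ubp6Δ and -0.69 in disome II, and HTB2 of 0.74 and 0.66. In 16 pairs with 1 member on chromosome II, the off-chromosome members had median differences of -0.03 in both strains. RPS9A was the only 1 of them below all other disomes (0.606% over all genes of other chromosomes). TEF1, for translation elongation factor EF-1 alpha on chromosome XVI, was at 1.14 in disome II ubp6Δ, above the others at -0.74, -0.13 and 0.20, and at 0.30 in disome II, within -0.23 to 0.82. Its partner TEF2 on chromosome II was at 0.94 in disome II ubp6Δ and 0.75 in disome II. TEF1 and TEF2 code for the same protein from near-identical genes, and their probes may cross-react.

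In the mean fit RPS9A, RAD52 and YKL223W were the genes of other chromosomes that passed, 1 higher (0.019% of 5268) and 2 lower (0.038%). RAD52, the strand annealing protein of recombination on chromosome XIII, was at 0.76 in disome II ubp6Δ, against -0.07, 0.21 and 0.46, and at 0.94 in disome II, against -0.60, 0.02 and 0.44. Its mean difference was 0.77 ± 0.17 (limma adjusted p = 0.0291), at strain signals of 218 in disome II ubp6Δ and 226 in disome II. The difference of RAD52 in disome II was 0.98, or 0.73 from the deposited table and 0.39 with normexp and loess. On the array of disome II the RAD52 reading was dim in both dyes. Its strain signal of 226 lay below the 464 to 2268 of the other disomes, and its reference signal of 117 below their 436 to 1346. YKL223W, an unannotated reading frame, was at -2.04 in disome II ubp6Δ and -1.69 in disome II, with strain signals of only 4.34 in disome II ubp6Δ and 26.9 in disome II (adjusted p = 0.0256). RAD52 and YKL223W are named after their values were seen.

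ARO9 and ARO10, enzymes that start the breakdown of aromatic amino acids, had differences above 1 in both strains, with SPL2 as the third such gene. ARO10, the phenylpyruvate decarboxylase, was at 1.52 in disome II ubp6Δ, against -1.38, 0.17 and 0.92, and at 1.21 in disome II, against -1.47, -0.52 and 0.40. ARO9, the aromatic aminotransferase, was at 1.12 in disome II ubp6Δ, against -0.93, 0.06 and 0.76, and at 1.56 in disome II, against -0.98, 0.16 and 0.48. Both lay above all other disomes in both genotypes. Neither passed, with mean differences of 1.59 ± 0.46 for ARO10 (limma adjusted p = 0.109) and 1.31 ± 0.41 for ARO9 (adjusted p = 0.173). These genes too are named after their values were seen.

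Lysine synthesis genes on other chromosomes lay below the other disomes. Of 9 genes read in both strains, 8 had negative differences in both and none positive ones in both. Over all genes of other chromosomes 25.4% were negative in both and 28.5% positive. The list's median difference was -0.58 in disome II ubp6Δ and -0.30 in disome II, where all genes of other chromosomes had medians of 0.02 in disome II ubp6Δ and 0.00 in disome II. Over the 9 genes the mean ratio to the reference, which also lacks LYS2, was -0.12 in disome II ubp6Δ. The other ubp6Δ disomes, which keep LYS2, ran from 0.05 to 0.71 with a median of 0.38. In disome II the mean ratio was -0.10, against 0.01 to 0.50 in the other disomes with a median of 0.21. LYS9, saccharopine dehydrogenase, was at -0.45 in disome II ubp6Δ, below the other ubp6Δ disomes at 0.35, 0.65 and 1.11. In disome II LYS9 was at 0.18, below the other disomes at 0.35, 0.84 and 1.60. LYS20, a homocitrate synthase, was at -0.51 in disome II ubp6Δ, against -0.19, 0.58 and 1.36, and at -0.16 in disome II, against -0.07, 0.31 and 1.02. These were the 2 genes of the list below all others in both genotypes, where 0.606% of all genes of other chromosomes were. Neither passed, with mean differences of -0.96 ± 0.30 for LYS9 (limma adjusted p = 0.182) and -0.83 ± 0.36 for LYS20 (adjusted p = 0.632). As background, the product of Lys2 is the signal through which Lys14 activates this pathway. In the differences from the other disomes, the loss of LYS2 and the extra chromosome II cannot be told apart.

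Genes of the retrograde pathway, by which Rtg1 and Rtg3 turn on genes of glutamate supply when mitochondria falter, had the highest median difference of the lists in disome II ubp6Δ and in disome II. RTG3 is itself a gene of chromosome II and was at 1.08 in disome II ubp6Δ, against -0.04, 0.71 and 1.21, and at 1.09 in disome II, against -0.31, 0.08 and 0.35. Of 8 listed genes on other chromosomes, 5 had positive differences in both strains and none negative ones in both. Over all genes of other chromosomes 28.5% were positive in both and 25.4% negative. The list's median differences were 0.75 in disome II ubp6Δ and 0.44 in disome II. IDH2, of the NAD-dependent isocitrate dehydrogenase, was at 1.10 in disome II ubp6Δ, against -0.29, 0.28 and 0.69, and at 1.00 in disome II, against -0.24, 0.26 and 0.63. IDH1, its partner subunit, was at 1.11 in disome II ubp6Δ and 0.77 in disome II. ACO1, aconitase, was at 1.21 in disome II ubp6Δ, above the others at -0.23, 0.07 and 0.83, and at 0.84 in disome II, within -0.46 to 0.99. CIT2, the peroxisomal citrate synthase, was at 1.63 in disome II ubp6Δ, against 0.12, 0.75 and 1.16, and at 0.95 in disome II, within -0.15 to 1.06. DLD3, a lactate dehydrogenase named after its values were seen, was with IDH2 above all others in both genotypes (0.511% over all genes of other chromosomes). DLD3 was at 0.64 in disome II ubp6Δ and 0.36 in disome II. PDH1, a mitochondrial enzyme of propionate use that is also named after its values were seen, was at 2.69 in disome II ubp6Δ, against -0.52, 0.35 and 1.52, and at 3.07 in disome II, against 0.44, 1.21 and 1.79 over the 5 other disomes where it was read, too few for a test. None of the list that was tested passed limma, with IDH2 closest at a mean difference of 0.81 ± 0.28 (adjusted p = 0.293). The difference of IDH2 in disome II was 0.74, or 0.42 with normexp and loess.

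**Figure D4:**
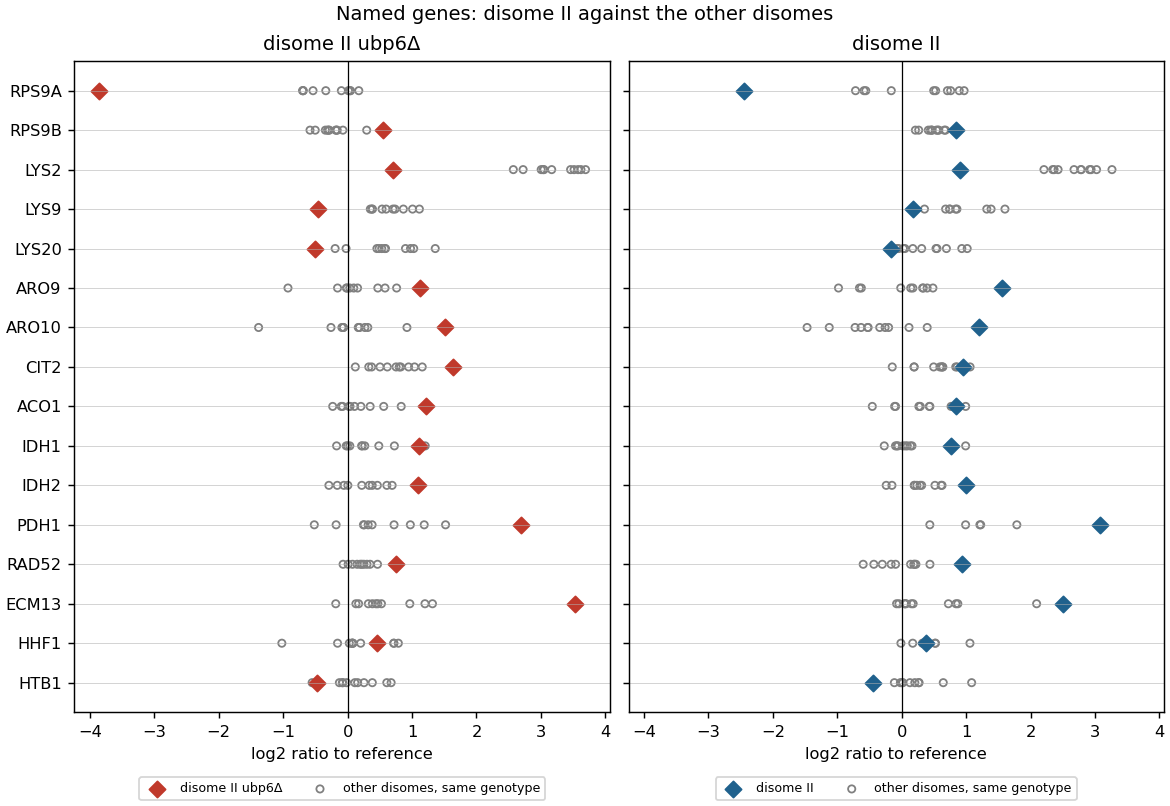
Log2 ratios of named genes in disome II ubp6Δ and disome II (large points) and in other disomes of the same genotype (open circles). Disome II ubp6Δ is in the left panel, and a disome whose own duplicated chromosome holds a gene is not drawn for it. ECM13, RAD52, ARO9 and ARO10 sit above all other disomes in both genotypes and RPS9A, LYS2, LYS9 and LYS20 below all of them, while HHF1 lies among the others in both.

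The wider respiratory and tricarboxylic acid list of 46 genes on other chromosomes had median differences of 0.21 in disome II ubp6Δ and 0.07 in disome II, with 24 higher and 2 lower in both and none past the test. Over all genes of other chromosomes 28.5% were higher in both and 25.4% lower. The mean ratio of the list was 0.38 in disome II ubp6Δ, within -0.88 to 0.77 in the other ubp6Δ disomes. In disome II that mean was 0.25, within -0.55 to 0.93 in the other disomes. The list holds IDH1, IDH2 and ACO1 too. The 8 respiratory genes on chromosome II all had positive differences in both strains. HAP3, a subunit of the activator of respiratory genes coded there, was at 0.37 in disome II ubp6Δ and 0.43 in disome II (mean difference 0.71 ± 0.28, limma adjusted p = 0.411).

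Phosphate genes mostly had positive differences. Of 21 on other chromosomes, 16 had positive differences in both strains and 2 negative ones, with medians of 0.23 in disome II ubp6Δ and 0.39 in disome II. Over all genes of other chromosomes 28.5% were positive in both and 25.4% negative. The mean ratio of the 21 genes was -0.16 in disome II ubp6Δ, within -1.49 to 0.24 in the other ubp6Δ disomes. In disome II that mean was -0.071, just above the -1.31 to -0.075 of the other disomes. PHO84, the high-affinity transporter, was at 0.02 in disome II ubp6Δ, against -3.58, -0.22 and 0.10, and at 0.26 in disome II, against -1.21, -0.23 and -0.03. SPL2, which holds back low-affinity uptake, was at -0.86 in disome II ubp6Δ, against -5.37, -1.55 and 0.09, and at 0.24 in disome II, against -4.57, -0.65 and 0.30. Against only the disomes of the same slide, the differences were smaller. That of PHO84 was 0.13 in disome II ubp6Δ, where it was 0.91, and 0.50 in disome II, where it was 0.63. In disome II that of SPL2 was 0.47, where it was 1.09, and that of PHO11 0.67, where it was 1.24. The other disomes span up to several log2 units at these genes, and none of the list on other chromosomes passed. PHM8, a phosphatase, was the 1 of the 21 above all others in both genotypes (0.511% over all genes of other chromosomes). PHM8 was at 0.37 in disome II ubp6Δ and 0.21 in disome II. On chromosome II itself 1 of the 4 genes of the list passed the mean fit. This was SND3, also known as PHO88, a protein of the endoplasmic reticulum, at 1.62 in disome II ubp6Δ and 0.72 in disome II (1.19 ± 0.27, limma adjusted p = 0.0276). PHO3, a relative of PHO5, was at 1.26 in disome II ubp6Δ and 0.78 in disome II (adjusted p = 0.857).

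**Figure D5:**
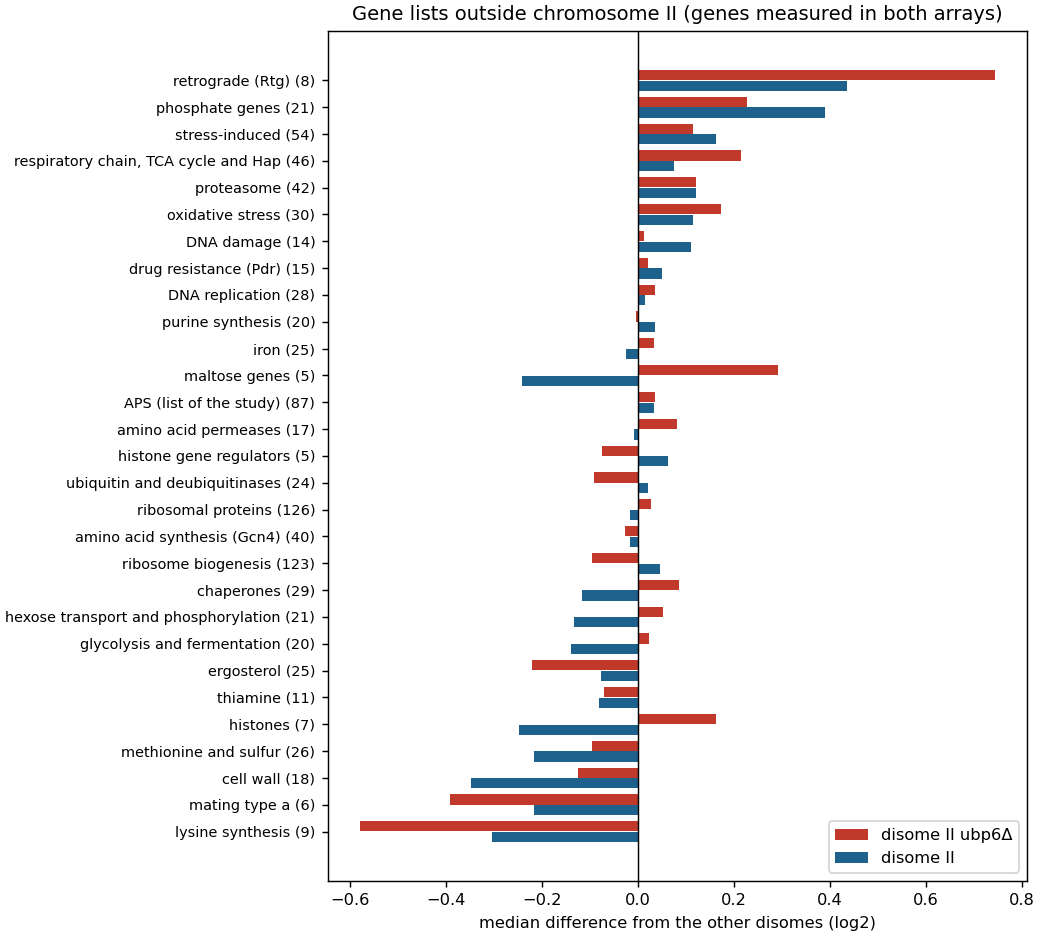
Median log2 difference from the other 11 disomes of the same genotype, by gene list, over list members on chromosomes other than II, for disome II ubp6Δ and disome II. The lysine list lies lowest in disome II ubp6Δ at -0.58 and the retrograde list highest at 0.75, and most lists lie near 0.

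Several lists leaned the other way among their genes on other chromosomes. By sign alone 25.4% of the 5268 genes tested there had negative differences in both strains, and 28.5% positive ones. The mean ratio of each list below lay within the range of the other disomes in both genotypes. Of 18 cell wall genes 10 had negative differences in both strains and none positive ones in both, with medians of -0.12 in disome II ubp6Δ and -0.35 in disome II. CWP1, a cell wall mannoprotein, was at -0.47 in disome II ubp6Δ, against -1.17, 0.80 and 1.68, and at -0.78 in disome II, against -0.85, 0.66 and 1.88. Of 25 ergosterol genes 10 had negative differences in both and none positive ones, with medians of -0.22 in disome II ubp6Δ and -0.08 in disome II. Of 26 methionine and sulfur genes 17 were negative and 6 positive in both, and MET3, the ATP sulfurylase, was at -1.19 in disome II ubp6Δ and -0.75 in disome II. Of 6 genes of a cells 4 were negative in both, with medians of -0.39 in disome II ubp6Δ and -0.22 in disome II, among them MFA1 for the a-factor pheromone. No member of these lists on other chromosomes passed limma.

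The lists of growth and stress showed little that was shared. The 126 ribosomal protein genes of other chromosomes had median differences of 0.03 in disome II ubp6Δ and -0.02 in disome II, with 25 positive and 26 negative in both. The 123 ribosome biogenesis genes had medians of -0.10 in disome II ubp6Δ and 0.05 in disome II. Of 54 stress-induced genes 26 were positive and 9 negative in both, with medians of 0.12 in disome II ubp6Δ and 0.16 in disome II. Over all genes of other chromosomes 28.5% were positive in both and 25.4% negative. The mean ratio of the stress list was 0.41 in disome II ubp6Δ, within -0.31 to 0.92 in the other ubp6Δ disomes. In disome II that mean was 0.59, within -0.49 to 1.41 in the other disomes. DDR2, a stress gene of unknown function, was at 1.28 in disome II ubp6Δ, inside -0.42 to 3.18, but at 3.30 in disome II, above the others at 0.50, 1.73 and 2.38. HSP12, a membrane-stabilising stress protein, was at 1.23 in disome II ubp6Δ and 3.33 in disome II, within the others' range in both. The aneuploidy-associated protein list that the study drew up had medians of 0.04 in disome II ubp6Δ and 0.03 in disome II over 87 genes of other chromosomes, with 28 positive and 15 negative in both, and since the study chose it on strains of this set it is not independent evidence.

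The ratio of disome II ubp6Δ minus that of disome II was last set against the same difference in the other 11 pairs. No gene of 5657 passed limma (0.0%), with 113 at an unadjusted p under 0.05. On chromosome II the difference averaged 0.09 (SD over genes 0.59, median 0.07), inside the range of the other pairs on their own chromosomes, which ran from -0.32 in disome XIV to 0.20 in disome I. On other chromosomes 5.84% of genes differed by more than 1 within the chromosome II pair, against 3.31 to 10.7% in the other pairs. Because the references of the 2 genotypes differed in UBP6, this difference is between ratios against unlike references. Genotype, dye orientation and reference cannot be told apart in it.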

How the data were processed

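RNA of each strain and of a reference was hybridised in opposite dyes to arrays of 60-base yeast probes, which the authors read with Feature Extraction 10.7.1.1. Deposited intensity values comprise median spot signals and processed signals, the second corrected for background and dye by the authors' software. The deposited log10 ratios are Cy5 over Cy3 of processed signals, the deposited flags mark outlier spots and spots above background, and a deposited table holds the authors' log2 ratios, with scale, centring and direction not stated but following the spot ratios here (correlation across genes 0.999 for disome II ubp6Δ and 0.98 for disome II).

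Log2 ratios of processed signals were averaged per gene over spots that were no outlier and well above background in at least 1 dye. The sign was turned on ubp6Δ arrays, whose ratios ran opposite to the labelled dyes. The reference annotation named 5718 of the 6176 open reading frames on the array. Array number limits the precision. Disome II was set against the other 11 disomes per genotype with limma 3.58.1 in R 4.3.3 (moderated variance, at least 6 other disomes, own duplicated chromosomes left out, Benjamini-Hochberg adjusted p of 0.05 over all genes); the lone array is assumed to vary like the others. A disome and its ubp6Δ derivative share a lineage and were taken as pairs: deviations within pairs correlated in 11 of 12 above 0.1 (median 0.32; chromosome II pair 0.16). Only 6 of the 12 ubp6Δ disomes correlated best with their own partner. Outside chromosome II, disome II ubp6Δ correlated more with disome XIII (0.21) than with disome II (0.16), which limits what can be called shared there.

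Tested on simulated data, the fits found 22% of log2 changes of 1 and 82% of changes of 2 over 5500 genes for disome II ubp6Δ, and 34% and 82% over 5356 genes for disome II. The simulated noise was normal and independent between genes outside chromosome II, so these shares may not hold for the arrays. In disome II, where no gene passed, the median difference of chromosome II genes was 0.89. Named genes were the markers, the 10 highest and 10 lowest of chromosome II, the 5 outermost at each end, its ribosomal protein genes, any gene of other chromosomes that passed in both strains, and list members (4 per list, or all for histone, galactose, phosphate, maltose, regulator and paralog lists). Members, lists and tests were chosen with earlier results of these data known. Alternatives changed filters, source, normalization, centring, slide, variance model and strains.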

Additional observations from a re-analysis of the deposited data

How the results depend on the processing

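The mean of chromosome II lay between 0.89 and 0.98 in disome II ubp6Δ under the alternatives, and in disome II it moved only with normexp and loess, to 0.61. The 55 calls of disome II ubp6Δ became 129 with normexp and loess, 3 with the other disomes' own chromosomes kept and 1 within the slide, where 3 other disomes remain, and 25 to 57 leaving out 1 other disome. The 0 calls of disome II became 2 with spots above background in both dyes, 2 from the deposited table, 13 with normexp and loess, 85 within the slide, 66 with slide as a block and 12 with an intensity trend and robust variance, and 0 to 40 leaving out 1 other disome (40 without XII, 14 without XV). The 0 calls in both strains became 1, 1, 11, 1, 19 and 6 under the same alternatives in that order, and 0 to 10 leaving out 1 disome (10 without XII). The mean fit, which a gene can pass on 1 strain alone, gave 158. For the difference between disome II ubp6Δ and disome II 3 genes passed with outlier spots kept, 0 to 1 leaving out 1 pair (1 without VIII), and 0 without the replicate block. Of 216 recomputed values of 38 named genes 196 kept direction and call, 5 lost the call and 11 gained it. The other 4 turned sign, which were ADE1 in disome II ubp6Δ with normexp and loess (0.91, from -0.28, over a reference signal near background) and HHF1 within the slide in disome II ubp6Δ (-0.051, from 0.31) and in disome II within the slide (0.17) and from the deposited table (0.11, from -0.03). The cause of these shifts was not tested beyond the fewer arrays of the slide fits. A value that kept direction and call could still shrink, as PHO5 did within the slide in disome II ubp6Δ (0.35, from 2.03). Weak signals limit the low genes, such as YKL223W, and with 1 array per strain no value has a replicate.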
